A study of Mus musculus with 4 samples.

Results

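The Arp2/3 complex grows new actin filaments as branches from the sides of existing ones. Its 10 subunit genes in mouse, Actr2, Actr3, Actr3b, Arpc1a, Arpc1b, Arpc2, Arpc3, Arpc4, Arpc5 and Arpc5l, were picked by gene symbol from the 32285 genes of a single-nucleus RNA sequencing data set of the hippocampus, and each symbol matched 1 gene. The tissue, both hemispheres of the hippocampus, came from wild-type (WT) mice and from mice that carried 1 copy of the R87C missense change in Cyfip2 (Cyfip2+/R87C, called KI here), all adult, on the C57BL/6N background and at the latest age at which the study took tissue. There were 2 mice per genotype with 1 library per mouse. The study used both sexes, and the treatment label of KI replicate 2 reads R88C where the protocol reads R87C. The change is in every cell of the animal, so a difference within a class need not have arisen in that class.

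Arp2 and Arp3 are actin-related proteins that stand in for the first subunits of the new filament, and the Arpc subunits hold them on the side of the mother filament. On its own the complex is nearly inactive. The WAVE regulatory complex, which contains Cyfip1 or Cyfip2, switches it on at the membrane when the GTPase Rac binds, and in neurons this drives the growth of dendritic spines and growth cones. In microglia and oligodendrocytes branched actin powers the movement of processes, phagocytosis and the spreading of the myelin sheath.

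The 4 libraries held 55640 barcodes, of which 52016 nuclei had at least 500 genes and were kept after doublet removal. They gave 66264081 to 73148785 unique molecular identifiers (UMIs) per library, and the 10 genes together took 191317 UMIs. Clusters were named from marker genes, and 12184 nuclei (23.4%) stayed unnamed, 2573 and 2510 in WT and 2681 and 4420 in KI replicates 1 and 2. Their clusters lacked clear markers, had markers of a further class raised or failed another limit. For example, a cluster of 389 nuclei had 9 of 9 microglial and 8 of 8 oligodendrocyte markers raised. Gating single nuclei by markers put 649 unnamed nuclei in microglia, beside 695 of the named microglia. In all, 13 classes had at least 20 nuclei in each library and 9 had at least 100. Any pair of libraries shared 39 to 66 barcodes. Cyfip2 itself stood at 182, 180.4, 172 and 171 CPM (UMI counts scaled to 1000000 UMIs) over all nuclei of the 2 WT and then the 2 KI libraries, and since a missense change leaves the transcript in place, this level does not check the genotype. The KI libraries stood apart from WT in how nuclei clustered. The dentate gyrus (DG) granule neurons fell into a cluster with 4075 and 3109 WT nuclei but only 206 and 589 KI nuclei, and another with 228 and 185 WT nuclei but 2274 and 1641 KI nuclei. KI replicate 1 stood apart in addition, with 249 of its 271 microglia and 267 of its 297 oligodendrocyte precursor cells (OPC) in clusters where the other libraries (KI replicate 2, then WT) held 32, 10 and 2 microglia and 37, 15 and 9 OPC.

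The genes are spread over 5 chromosomes (positions in build GRCm38). Arpc2 (chr1:74236084-74268209), Actr3 (chr1:125392905-125435727) and Arpc5 (chr1:152766542-152775597) lie on chromosome 1. Arpc5l lies on chromosome 2 (chr2:39005348-39015877), Arpc4 on chromosome 6 (chr6:113378115-113390448) and Actr2 on chromosome 11 (chr11:20062304-20112913). Chromosome 5 holds Actr3b (chr5:25759997-25850688), Arpc3 (chr5:122391878-122414184), Arpc1a (chr5:145083830-145108761) and Arpc1b (chr5:145114215-145130705). Arpc1a and Arpc1b are neighbours on the same strand, with 5453 bases and 0 annotated genes between them. They encode alternative versions of the same WD-repeat subunit, and 74.1% of their aligned coding bases are identical. Coding identity was 76.3% for Actr3 and Actr3b, and 71.3% for Arpc5 and Arpc5l. The longest run of identical coding bases was 20 or 21 in each pair, so that a longer exact match places a coding read in 1 member of the pair. Other genes do share sequence with the members. Of the 50-base words in the last 500 bases of each annotated transcript, 34.5% in Actr3 also occurred in Gm15899 or Gm8822, 15.4% in Arpc4 occurred in Ttll3, and 8.23% in Arpc1b occurred in Gm48920, Gm5637 or Gm7382. The share was under 1% in each of the other 7. Arpc4 also overlaps Ttll3 on its own strand, as Arpc5l overlaps Wdr38 and Arpc3 overlaps Gm42829, so the levels of Actr3, Arpc4 and Arpc1b, and to a lesser degree Arpc5l and Arpc3, are the ones that the counting could have split.

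Upstream sequence is shown for Arpc1a and Arpc1b because these neighbours differed in the class with the highest level, oligodendrocytes for Arpc1a and microglia for Arpc1b. The stretches end at the base before the annotated gene start (RefSeq promoter windows, GRCm38.p6, + strand, chr5:145083619-145083829 for Arpc1a and chr5:145114006-145114214 for Arpc1b). Capitals mark CG dinucleotides.
Arpc1a: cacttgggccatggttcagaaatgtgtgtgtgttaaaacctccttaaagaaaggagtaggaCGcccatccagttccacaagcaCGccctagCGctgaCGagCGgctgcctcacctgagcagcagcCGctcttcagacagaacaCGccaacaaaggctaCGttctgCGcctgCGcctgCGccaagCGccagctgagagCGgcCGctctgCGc
Arpc1b: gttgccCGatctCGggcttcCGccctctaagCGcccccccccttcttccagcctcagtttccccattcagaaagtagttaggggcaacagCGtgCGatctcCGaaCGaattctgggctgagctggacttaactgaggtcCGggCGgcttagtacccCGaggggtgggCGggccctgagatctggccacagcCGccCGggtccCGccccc
Over the full 250 bases before the RefSeq start, CG occurred 18 times for Arpc1a and 20 times for Arpc1b, against a median of 6 over 32851 RefSeq promoters. The GC-box letters CCGCCC (searched on both strands) matched 7 times in the Arpc1b window and 0 times in the Arpc1a window, and 32.7% of all promoters hold at least 1 match. GAGGAAGT, the letters bound by the myeloid factor PU.1, matched in neither window and in 2.44% of all promoters. TATAAA matched in neither window and in 12.4% of all promoters. RefSeq windows were found for 8 of the 10 genes.

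Levels were compared between classes as CPM of the class, as a description with no test, because the classes were made from the same nuclei. Values are given for the 9 classes with at least 100 nuclei in each library. Microglia had the highest mean for 7 of the 10 genes (Actr2, Actr3, Arpc1b, Arpc2, Arpc3, Arpc4 and Arpc5l), CA1 pyramidal neurons for Actr3b and Arpc5, and oligodendrocytes for Arpc1a. Inhibitory neurons had the lowest mean for 6 (Actr3, Arpc1a, Arpc2, Arpc3, Arpc4 and Arpc5). For 8 genes the highest class was the same in each of the 4 libraries. With the 4 smaller classes included this was so for 2, Actr2 in microglia and Arpc1a in committed OPC. The order depended in part on how classes were made. With nuclei gated by markers and the smaller classes included, microglia had the highest mean for Actr2, Actr3, Arpc1b and Arpc4. CA1 pyramidal neurons then had the highest mean for Arpc2, and astrocytes for Arpc3 and Arpc5l.

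**Figure D1:**
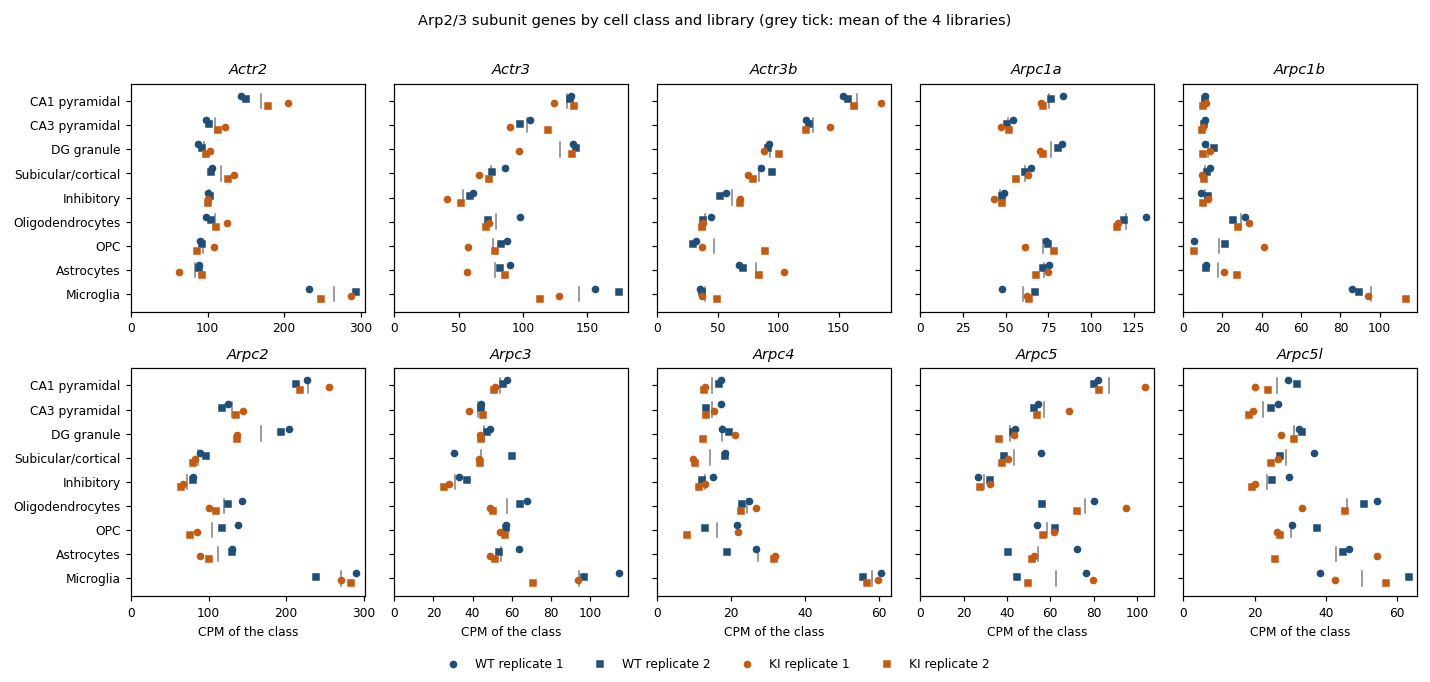
Level of each Arp2/3 subunit gene, in CPM of the class (x axis, from 0, a scale of its own in each panel), in the 9 classes with at least 100 nuclei per library. Blue points are WT and orange points KI libraries, and the grey tick is the mean of the 4. Microglia stand apart from the other classes for Actr2, Arpc1b, Arpc3 and Arpc4, oligodendrocytes for Arpc1a and CA1 pyramidal neurons for Actr3b.

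Among the actin-related proteins, Actr2, which encodes Arp2, reached 233 and 294 CPM in WT against 288 and 248 CPM in KI microglia. CA1 pyramidal neurons followed at 143 and 149.6 CPM in WT against 205 and 179 CPM in KI. Both classes lay above the next in order. Among the other 7 classes neighbours in the order overlapped, with means of 82.8 (astrocytes) to 118 CPM (subicular or cortical excitatory neurons). Actr3, which encodes Arp3, had no such step at the top. Its means of 143 CPM in microglia, 135 CPM in CA1 pyramidal neurons and 129 CPM in DG granule neurons had overlapping ranges, and inhibitory neurons were lowest at 41.3 to 61.6 CPM. Actr3b, the second Arp3 gene, was highest in pyramidal neurons. CA1 pyramidal neurons held 154, 158, 186 and 163 CPM and did not overlap CA3 pyramidal neurons at 123, 125, 143 and 123 CPM, which in turn did not overlap DG granule neurons at 88.8 to 101 CPM. Microglia (35.1 to 49.6 CPM) and oligodendrocytes (37.0 to 44.8 CPM) had the lowest Actr3b means.

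Arpc2 and Arpc4 form the core that grips the mother filament. Arpc2 had a mean of 271 CPM in microglia and 228 CPM in CA1 pyramidal neurons, and the ranges of these classes overlapped. CA1 pyramidal neurons lay above DG granule neurons, which had a mean of 167 CPM, and inhibitory neurons were lowest with a mean of 72.5 CPM. Arpc4 was at 60.6, 55.8, 59.8 and 56.7 CPM in microglia (mean 58.2, SD 2.32, n = 4). Astrocytes (mean 27.3 CPM) and oligodendrocytes (mean 24.2 CPM) came next, and the other 6 classes had means of 12.8 to 17.5 CPM.

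The paralogs Arpc1a and Arpc1b, which both encode the WD-repeat subunit that meets the activator, had opposite leading classes. Oligodendrocytes held 132, 119, 116 and 116 CPM of Arpc1a and lay above the 8 other classes, whose means ran from 47.0 (inhibitory neurons) to 76.4 CPM (DG granule neurons). Arpc1b was at 86.1, 89.3, 93.9 and 113 CPM in microglia against a mean of 29.6 CPM in oligodendrocytes. The 5 neuron classes had Arpc1b means of 10.4 to 12.6 CPM, with overlapping ranges. In committed OPC, which had 23 to 43 nuclei per library, Arpc1a reached 138, 135, 121 and 192 CPM from as few as 10 UMIs.

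Arpc3, a small subunit beside Arp3, had 115, 96.7, 93.9 and 70.9 CPM in microglia, above a mean of 57.7 CPM in oligodendrocytes. Inhibitory neurons were lowest for Arpc3 with a mean of 30.8 CPM and lay below the next class. Arpc5 and Arpc5l encode alternative versions of the smallest subunit, and the choice between them is known to tune how active the complex is. CA1 pyramidal neurons led for Arpc5 at 82.0, 79.9, 104 and 82.4 CPM, and overlapped oligodendrocytes at 80.0, 56.4, 95.0 and 72.5 CPM. Inhibitory neurons lay below the other 8 classes for Arpc5 (26.6 to 32.1 CPM). Arpc5l was highest in microglia, oligodendrocytes and astrocytes, with means of 50.2, 45.9 and 42.9 CPM and overlapping ranges, and lowest in CA3 pyramidal neurons at 22.3 CPM.

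Free RNA in the droplets carries transcripts into nuclei that do not make them, and its size was read from 3 neuronal genes, Slc17a7 (a vesicular glutamate transporter of excitatory neurons), Snap25 and Syt1 (both of synaptic vesicle release). Microglia held 137, 175, 139 and 248 CPM of Slc17a7, which is 0.759 to 1.62 times its level over all nuclei. The gauges differed, since the microglial ratio was 0.433 to 0.560 for Snap25 and 0.288 to 0.339 for Syt1. Slc17a7 had the highest microglial ratio of the 3 and so sets the strictest bar. Its ratio was 0.794 to 1.04 in oligodendrocytes, 0.670 to 1.11 in astrocytes and 0.471 to 0.880 in OPC. Median depth was 1166.5 to 1282.5 UMIs per nucleus in microglia and 4956.5 to 6921 in CA1 pyramidal neurons. In microglia, 6 of the 10 subunit genes (Actr2, Arpc1b, Arpc2, Arpc3, Arpc4 and Arpc5l) had a higher ratio to all nuclei than Slc17a7 in each of the 4 libraries, with Arpc1b at 5.96 to 9.25. For Actr3 (1.14 to 1.65), Arpc1a (0.629 to 0.9998) and Arpc5 (0.904 to 1.36) the reading depended on the gauge. Actr3 was above Slc17a7 in 3 libraries and Arpc1a and Arpc5 in 1, while all 3 were above Snap25 and Syt1 in each library. Actr3b, at 0.326 to 0.478, was above Slc17a7 in none, above Snap25 in KI replicate 2 alone and above Syt1 in 3. Whether microglia express Actr3b could thus not be told. In oligodendrocytes 6 genes were above Slc17a7 in each library (Arpc1a, Arpc1b, Arpc3, Arpc4, Arpc5 and Arpc5l), in astrocytes 5 (Arpc1a, Arpc1b, Arpc3, Arpc4 and Arpc5l) and in OPC 4 (Arpc1a, Arpc3, Arpc5 and Arpc5l). Actr3b was above Slc17a7 in none of the libraries in oligodendrocytes and OPC, and above Syt1 in each of them. Against Snap25 it was lower in each library of oligodendrocytes (0.330 to 0.435 against 0.360 to 0.498). In OPC it was above Snap25 in KI replicate 2 alone (0.286 to 0.858 against 0.446 to 0.471). In the other direction, the microglial receptor gene Csf1r was at 4.16 to 6.00 CPM in CA1 pyramidal neurons and 584 to 702 CPM in microglia, while Arpc1b was at 9.85 to 11.4 CPM and 86.1 to 113 CPM in the same classes.

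The share of a paralog in its pair sets the make-up of the complex apart from its amount. It is a share of UMIs, with exact (Clopper-Pearson) 95% intervals that cover counting error only, and it may be compared between classes but does not say which protein is more abundant. Arpc1b made up 64.3%, 57.1%, 60.0% and 64.0% of Arpc1a plus Arpc1b in microglia. KI replicate 2, the thinnest microglial library with 25 UMIs of the pair, had an interval of 42.5% to 82.0%. In CA1 pyramidal neurons the Arpc1b share was 11.8% to 13.9%, and in oligodendrocytes 17.5% to 22.4%. Actr3b made up 17.5% to 30.4% of its pair in microglia and 31.5% to 34.3% in oligodendrocytes, and 52.9% to 59.9% in CA1 pyramidal neurons. Arpc5l made up 16.3% to 28.5% of its pair in CA1 pyramidal neurons and 38.7% to 46.3% in DG granule neurons.

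**Figure D2:**
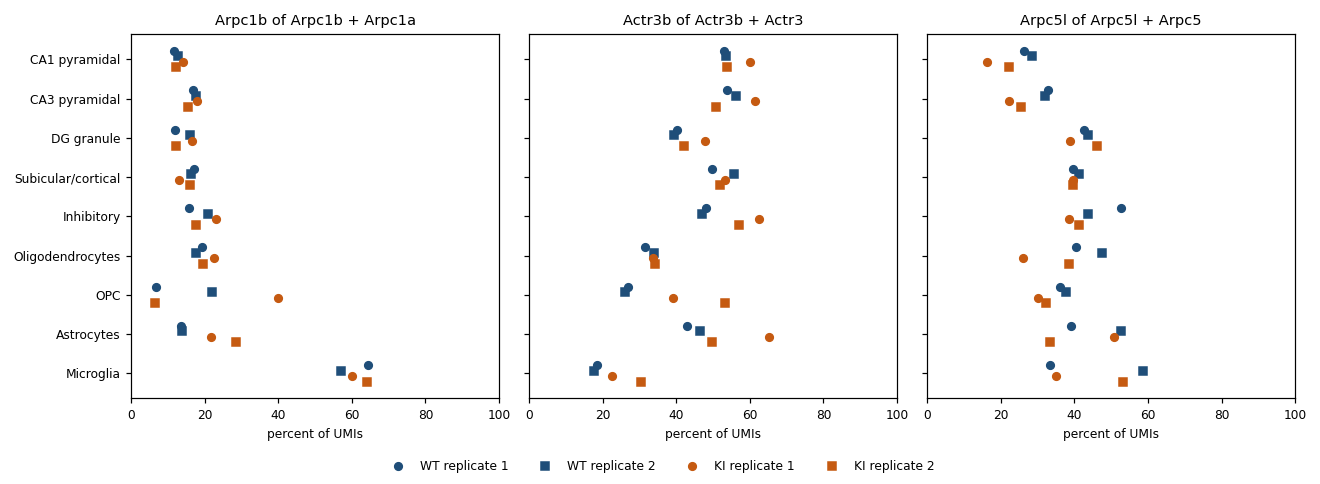
Share of UMIs (percent, x axis from 0 to 100) that the first-named gene takes of its paralog pair, by class (y axis) and library. Blue points are WT and orange points KI libraries. Microglia stand apart for Arpc1b at 57.1% to 64.3%, and KI libraries lie to the right of WT for Actr3b in DG granule and inhibitory neurons. The DG granule class is split by genotype into clusters, and within neither cluster did both KI libraries lie above both WT libraries.

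KI was then compared with WT on counts summed per library by the quasi-likelihood test of edgeR, and p-values were adjusted over all genes tested by the Benjamini-Hochberg method, with a threshold of 0.05. Log2 fold changes are KI over WT with edgeR's TMM scaling, and can differ in size from ratios of CPM. Over all nuclei, 0 of the 10 genes passed the test, where 0.875% of 21715 genes did. At an unadjusted p below 0.05 there were 2, Actr2 and Arpc5l, against 24.2% of all genes, and with DESeq2 0 passed after adjustment. Actr2 was at 108 and 109.9 CPM in WT against 138 and 123 CPM in KI (log2 fold change 0.32, SE 0.10, adjusted p = 0.157). Arpc5l was at 32.6 and 30.4 CPM in WT against 23.5 and 25.0 CPM in KI (-0.33, SE 0.10, adjusted p = 0.145). The KI libraries lay above both WT libraries for Actr2 and Actr3b (26.6% of all genes did) and below them for Actr3, Arpc1a, Arpc2, Arpc3 and Arpc5l (34.3% of all genes). Sums over all nuclei mix the classes, and there a change in the number of nuclei of a class and a change in RNA per nucleus cannot be told apart.

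Within classes, 103 of the 130 pairs of a gene and a class passed the filter on low counts. Mural cells had 0 members tested, committed OPC 1, Cajal-Retzius cells 3, fibroblasts 9 and each of the other classes 10. Of the 103, 1 passed the test, Arpc2 in DG granule neurons, and 13 had an unadjusted p below 0.05. Over all genes and these classes 3.01% of tests passed and 17.9% had an unadjusted p below 0.05. These shares weigh each class by its number of genes tested, and the members' tests repeat the same genes in the same mice. Counts this small were therefore not read as a difference from the shares. In DG granule neurons 9.69% of 16381 genes passed, 4.87% with a lower level in KI.

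**Figure D3:**
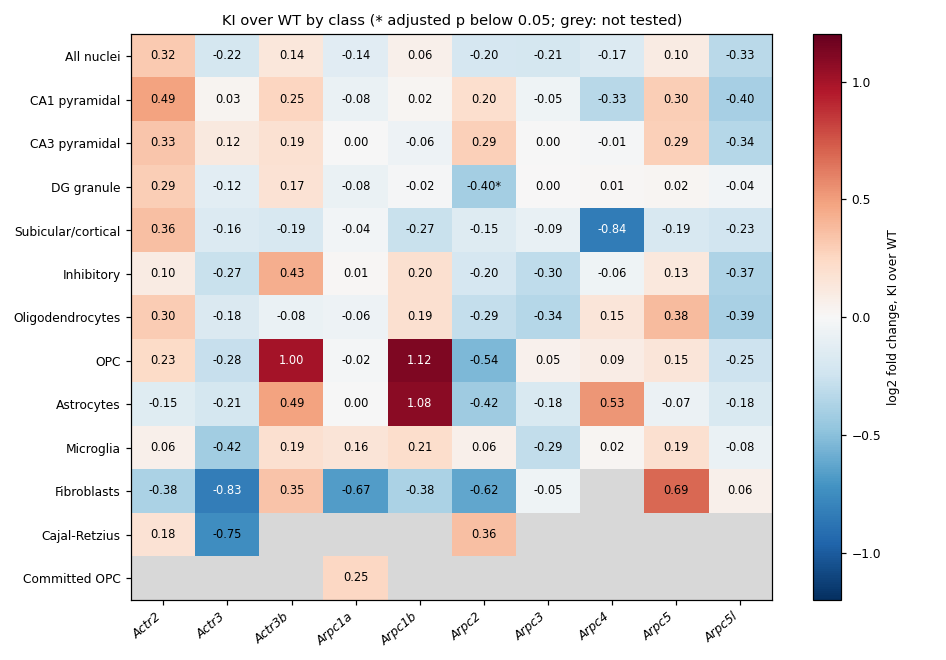
Log2 fold change of KI over WT (colour and printed value) for each subunit gene (columns) in all nuclei and in 12 classes (rows), from edgeR with TMM scaling. The asterisk marks the single adjusted p below 0.05, Arpc2 in DG granule neurons at -0.40, and grey cells were not tested.

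Arpc2 fell in DG granule neurons. Its level was 203 and 193 CPM in WT against 136 and 137 CPM in KI (log2 fold change -0.40, SE 0.09, adjusted p = 0.0453), and the genotypes did not overlap. CA1 pyramidal neurons did not share this pattern, with 227 and 213 CPM in WT against 255 and 218 CPM in KI (0.20, SE 0.12, adjusted p = 0.348). The difference between these effects, tested as the interaction of class and genotype with a term for each library, was -0.59 (SE 0.10, adjusted p = 0.00171), and 13.8% of 17120 genes passed this test. Of the other 9 members, 0 passed it. In CA3 pyramidal neurons Arpc2 was at 125 and 117 CPM in WT against 144 and 135 CPM in KI (0.29, SE 0.11, adjusted p = 0.195). Leaving out a library leaves 1 of its genotype, assumed to vary like the pair that remains. On that footing the DG call was lost without WT replicate 1 (adjusted p = 0.513) or WT replicate 2 (adjusted p = 0.426), and it was also lost with DESeq2 (adjusted p = 0.0636), at equal depth (adjusted p = 0.0526) and with nuclei gated by markers (adjusted p = 0.0682). The log2 fold change itself was -0.45 to -0.37 without 1 library, -0.40 with DESeq2, -0.38 at equal depth and -0.36 with the gate. The test between classes was lost without WT replicate 1 (adjusted p = 0.0606) or WT replicate 2 (adjusted p = 0.0623).

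The DG difference moved with the split of the granule neurons into clusters. In the cluster held mostly by WT nuclei, Arpc2 was at 207 and 196 CPM in WT against 192 and 184 CPM in KI (log2 fold change 0.01, SE 0.11, adjusted p = 0.983). In the cluster held mostly by KI nuclei it was at 134 and 146 CPM in WT against 131 and 120 CPM in KI (-0.08, SE 0.17, adjusted p = 0.885). Each library thus had less Arpc2 in the second cluster than in the first, by 0.43 to 0.62 on the log2 scale, and the genotypes lay closer together within a cluster than over the class. Actr3, Arpc3 and Arpc5 were also lower in the second cluster in each of the 4 libraries, which makes 4 of the 10 members against 19.6% of 9231 genes at 10 CPM or more. The clusters were made from the same nuclei, so these values are a description. The nuclear RNA Malat1 took 8.38% and 8.41% of DG granule UMIs in WT and 16.9% and 14.1% in KI. When library totals replaced TMM scaling the median of all genes in this class shifted by -0.13, and 42.8% of all genes had both KI libraries below both WT libraries in CPM. The part of the clusters and of Malat1 in the Arpc2 difference was not tested.

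**Figure D4:**
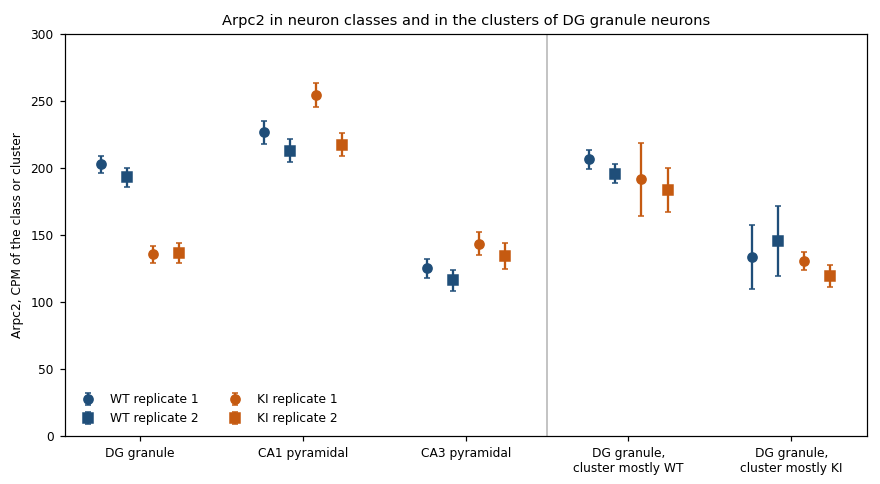
Arpc2 in CPM (y axis, from 0) in 3 neuron classes and in the 2 clusters of DG granule neurons, by library (blue WT, orange KI). Bars are 95% counting error. The KI libraries lie below WT over the DG class, at 136 and 137 against 203 and 193 CPM, while within each cluster the genotypes lie close together.

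In CA1 pyramidal neurons 0 of the 10 genes passed the test against 8.06% of 16002 genes, with 2 at an unadjusted p below 0.05 against 26.9% of all genes. Actr2 was nearest to the threshold, at 143 and 149.6 CPM in WT against 205 and 179 CPM in KI (log2 fold change 0.49, SE 0.12, adjusted p = 0.0522). It passed under 7 of 14 alternative settings, DESeq2 among them (adjusted p = 0.0249). The 14 include the fits without 1 library, whose spread comes from the other genotype's pair alone, so the count says little about stability. Over the 14 settings its log2 fold change was 0.32 to 0.63. Arpc5l was at 29.4 and 31.9 CPM in WT against 20.2 and 23.6 CPM in KI (-0.40, SE 0.13, adjusted p = 0.114). The KI libraries lay above WT for Actr2, Actr3b and Arpc5 (23.5% of all genes in CA1) and below WT for Arpc1a, Arpc3, Arpc4 and Arpc5l (37% of all genes).

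The side on which the KI libraries lay was counted over the classes, whose nuclei in a library share the same mouse and free RNA. Over all tests of a gene in a class, KI lay above WT in 19.1% and below WT in 31.7%, and among the classes with a member tested these shares ran from 13.5% to 23.5% and from 20.3% to 42.8%. KI lay above WT for Actr2 in 5 of 11 classes (CA1, CA3, DG and subicular or cortical neurons and oligodendrocytes) and below in 1, fibroblasts. For Arpc5l KI lay below WT in 7 of 10 classes and above in 0, with log2 fold changes of -0.40 to 0.06. Actr3 lay below WT in 7 of 11 classes and Arpc3 in 7 of 10, with 0 classes above for either. Counts that include DG granule neurons cross their split into clusters, whose part was not tested. In the cluster held mostly by WT nuclei, Arpc3 was at 49.4 and 47.5 CPM in WT against 70.0 and 54.9 CPM in KI (log2 fold change 0.42). Actr3 was at 0.37 there, and both genes were at 0.04 in the other cluster. Arpc2 lay below WT in 7 of 11 classes and above in 1, CA3 pyramidal neurons. Arpc1a lay below WT in 4 of 11 classes and above in 0. Actr3b lay above WT in 4 of 10 classes and below in 2, Arpc1b above in 2 and below in 2 of 10, and Arpc4 above in 1 and below in 2 of 9. Arpc5 overlapped between genotypes in 9 of 10 classes. None of these passed the test other than Arpc2 in DG granule neurons.

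In astrocytes (204 to 600 nuclei per library) Arpc1b was at 11.8 and 11.6 CPM in WT against 20.7 and 27.2 CPM in KI (log2 fold change 1.08, SE 0.39, adjusted p = 0.374). The microglial gene Csf1r was at 21.2 and 13.8 CPM in WT against 22.5 and 9.06 CPM in KI astrocytes, and its part was not tested. In OPC Actr3b was at 32.2 and 29.3 CPM in WT against 36.6 and 89.2 CPM in KI (1.0, SE 0.38, adjusted p = 0.225), where the KI mean rests on KI replicate 2. Most OPC of KI replicate 1 lay in a cluster with fewer nuclei of each other library, as did most of its microglia. In microglia 0 of the 10 passed, with 0 at an unadjusted p below 0.05, where 0.231% of 6483 genes passed. Actr3 was at 156 and 175 CPM in WT against 128 and 113 CPM in KI microglia (-0.42, SE 0.28, adjusted p = 0.625). In simulated counts with the depth of this class the test recovered 21.1% of genes with a log2 change of 1 and 81.5% of genes with a log2 change of 2, so most changes of the smaller size would go uncalled in microglia. The matching figures were 51.0% and 95.8% for oligodendrocytes and 68.7% and 100% for DG granule neurons. The simulation gave all genes 1 fixed dispersion and all libraries 1 mean profile, so it did not carry the measured spread between these mice. The rates are therefore those of the simulated setting only.

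Paralog shares of the genotypes are given as a description with no test. Actr3b made up 47.2% and 49.1% of its pair over all nuclei in WT and 57.1% and 51.2% in KI. In inhibitory neurons the shares were 48.2% and 46.9% in WT and 62.5% and 57.0% in KI, and in DG granule neurons 40.1% and 39.4% in WT and 47.9% and 42.1% in KI. The DG shares cross the split into clusters, whose part was not tested. In the cluster held mostly by WT nuclei the share was lower in KI. There WT had 1581 and 1337 UMIs of Actr3b beside 2394 and 2062 of Actr3, and KI 74 and 282 beside 140 and 503. In the other cluster the genotypes overlapped. In CA1 pyramidal neurons the shares were 52.9% and 53.5% in WT and 59.9% and 53.7% in KI, and in astrocytes 43.0% and 46.4% in WT and 65.1% and 49.6% in KI. In both, the 95% interval of KI replicate 2 (52.0% to 55.4% and 40.02% to 59.1%) held the WT shares, so the gap rests on KI replicate 1, and in astrocytes Actr3b was above Slc17a7 in 1 library. CA3 pyramidal neurons, subicular or cortical neurons, oligodendrocytes, Cajal-Retzius cells and committed OPC overlapped. KI also lay above WT in fibroblasts, OPC and microglia and below WT in mural cells (63.6% and 33.3% in WT, 7.14% and 0% in KI), but fibroblasts and mural cells held at most 36 UMIs of the pair in a library, and in OPC and microglia Actr3b was not above Slc17a7. The Arpc5l share in CA1 pyramidal neurons was 26.4% and 28.5% in WT and 16.3% and 22.3% in KI. KI also lay below WT for it over all nuclei and in CA3 pyramidal and inhibitory neurons and oligodendrocytes. The libraries did not overlap either in subicular or cortical neurons, though there WT had 39.7% and 41.1% and both KI libraries 39.6%, nor in OPC and fibroblasts, which held 19 to 61 UMIs of the pair per library. The other 6 classes overlapped. Arpc1b shares overlapped between genotypes over all nuclei, at 15.1% and 17.1% in WT and 19.7% and 16.1% in KI. KI lay above WT for this share in astrocytes (13.5% and 13.9% in WT, 21.6% and 28.6% in KI) and oligodendrocytes, below WT in subicular or cortical neurons, and overlapped in the other 10 classes. In each of these 3 the 95% interval of at least 1 KI library held both WT shares, as with 11.3% to 35.3% for KI replicate 1 in astrocytes, from 51 UMIs of the pair.

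The genes that switch the complex on and off were read from the same fits, in lists of 67 genes in all. The WAVE regulatory complex, with Cyfip1 and Cyfip2, had 0 calls in 108 tests of its 11 genes over the 13 classes. At an unadjusted p below 0.05 it had 11, and DESeq2 called 0. Over all genes and classes 3.01% of tests were calls and 17.9% had an unadjusted p below 0.05. The list's tests repeat the same genes over classes of the same mice. Counts this small were therefore not read as a difference from those shares. The Rac and Cdc42 GTPases had 0 calls in 35 tests, 2 at an unadjusted p below 0.05 and 0 by DESeq2. The same limit holds for them.

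Of the other activators of Arp2/3, 2 of 13 tested rose in CA1 pyramidal neurons, where 5.01% of all genes rose, and 2 of 13 fell in DG granule neurons, where 4.87% fell. Over the classes these were the 4 calls in 123 tests, close to the 3.01% of all genes, and 19 tests had an unadjusted p below 0.05. Wipf3, of the WIP family that binds N-WASP, was at 388 and 367 CPM in WT against 468 and 501 CPM in KI CA1 pyramidal neurons (log2 fold change 0.45, SE 0.08, adjusted p = 0.0234). Washc2, a subunit of the WASH complex that drives Arp2/3 on endosomes, rose there from 60.9 and 62.2 CPM to 72.7 and 90.5 CPM (0.49, SE 0.11, adjusted p = 0.0422). The Wipf3 call was lost in 3 and the Washc2 call in 6 of 14 alternative settings, among them without WT replicate 1 (adjusted p = 0.189 for Wipf3 and 0.356 for Washc2) or WT replicate 2 (adjusted p = 0.325 and 0.295). Wipf2, of the same family as Wipf3, fell in DG granule neurons, where WT had 54.6 and 55.7 CPM and KI 35.2 and 37.5 CPM (-0.47, SE 0.11, adjusted p = 0.0471), a call lost in 7 of 16 alternative settings. The other call was Wipf1, lower in DG granule neurons at a mean under 10 CPM.

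Inhibitors of the complex and proteins that take branches apart had 1 call each way in 72 tests, close to the 3.01% of all genes, with 12 at an unadjusted p below 0.05 and 1 call by DESeq2. Coro2b, a coronin, fell in DG granule neurons, with 92.3 and 104 CPM in WT against 63.6 and 64.5 CPM in KI (-0.48, SE 0.11, adjusted p = 0.0442), and Arpin, an inhibitor, was higher in CA1 pyramidal neurons at a mean under 10 CPM. Formins and related factors nucleate unbranched filaments, and here had 3 calls higher and 4 lower in 146 tests, with 35 at an unadjusted p below 0.05. In DG granule neurons 3 of the 16 tested were higher and 3 lower in KI, where 4.82% of all genes were higher and 4.87% lower. The formin Fmn1 rose there from 61.9 and 59.5 CPM to 108 and 127 CPM (1.09, SE 0.11, adjusted p = 0.00439), and Fhod3 from 6.57 and 5.63 CPM to 16.5 and 15.5 CPM (1.52, SE 0.18, adjusted p = 0.00712). Inf2 fell from 68.3 and 71.7 CPM to 29.9 and 39.8 CPM (-0.88, SE 0.14, adjusted p = 0.0172), and Fmnl1 from 32.4 and 36.9 CPM to 19.8 and 17.6 CPM (-0.75, SE 0.15, adjusted p = 0.0315). Cobl was also higher and Daam1 lower in this class. In OPC Diaph3 fell from 78.8 and 71.7 CPM to 20.5 and 40.5 CPM (-1.31, SE 0.33, adjusted p = 0.0494), where 1.22% of 8414 genes passed (0.404% with a lower level in KI), and the call was lost in 9 of 13 alternative settings, among them without WT replicate 1 (adjusted p = 0.278), WT replicate 2 (adjusted p = 0.181) or KI replicate 1 (adjusted p = 0.496). Of actin and the proteins at filament ends, Cfl2, a cofilin that severs filaments, rose in DG granule neurons, with 54.9 and 54.3 CPM in WT against 84.4 and 77.0 CPM in KI (0.70, SE 0.11, adjusted p = 0.0175), the only call in 108 tests, with 22 at an unadjusted p below 0.05. The 7 DG granule calls with values above (Wipf2, Coro2b, Fmn1, Fhod3, Inf2, Fmnl1 and Cfl2) were each lost without WT replicate 1 or WT replicate 2, with adjusted p of 0.0695 to 0.522. They too were made across the split of this class into clusters, whose part was not tested. In the cluster held mostly by WT nuclei, Wipf2 (log2 fold change -0.68, SE 0.15, adjusted p = 0.0419), Fmn1 (0.62, SE 0.13, adjusted p = 0.0349) and Fhod3 (1.46, SE 0.26, adjusted p = 0.0183) passed the test. Fmnl1 passed in the other cluster (-1.49, SE 0.27, adjusted p = 0.0031). Coro2b (-0.32 and -0.24) and Cfl2 (0.42 and 0.58) passed in neither, and Inf2, also in neither, was at 0.41 in the first and -0.54 in the second.

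Genes whose mean log2 levels were most like those of Arpc1b, Arpc5 and Actr3b across the 13 classes were looked up among 12233 genes with at least 20 CPM in 1 class. Class means share libraries and depth, so Pearson's r is a description. For Arpc1b they were Wapl (r = 0.947), Mrps28 (r = 0.937) and Lsm14a (r = 0.935), each highest in microglia. For Actr3b they were St6galnac5 (r = 0.950), Kalrn (r = 0.933), which encodes a guanine nucleotide exchange factor for Rac at dendritic spines, and Cap2 (r = 0.932), a cyclase-associated actin-binding protein. Arpc5 had weaker partners, Zfr (r = 0.828), Crim1 (r = 0.817) and Csnk1a1 (r = 0.810).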

How the data were processed

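Hippocampal nuclei of 4 mice (2 WT, 2 KI) were profiled by the authors on the 10x Chromium platform as 1 library per mouse, and the submitters' processing notes name Cell Ranger 7.0.1 and build mm10. The deposited files hold raw UMI counts per gene and nucleus, with no normalization. Barcodes with at least 500 genes and at most 5% mitochondrial UMIs were kept, and nuclei with a scrublet doublet score above 0.25 were removed. Nuclei were clustered with scanpy 1.11.5 on 2000 variable genes, less the members and regulator genes, and clusters were named from 19 marker lists. The members and lists were chosen with earlier results of these data known, and the limits for naming clusters and the doublet score were set after clusters had been seen. Levels were not tested between classes, and the genotype effect was tested between DG granule and CA1 pyramidal neurons only.

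Counts were summed per library and class. KI was compared with WT in R 4.3.3 with edgeR 4.0.16 (quasi-likelihood test, TMM, edgeR's low-count filter), with no covariate, and p-values were adjusted over all genes of a class. Mice are the replicates, and 2 against 2 gives little power for small changes. The test was tried on simulated counts. DESeq2 1.42.0 and other settings served as alternatives. Library totals without Malat1 and the clusters of DG granule neurons were added after seeing the data. All members were described. Of the regulator lists, genes with an adjusted p below 0.05 and a mean of at least 10 CPM were described, up to 2 per list, direction and class. The other calls were named after their values were seen. Genes alike were ranked on mean log2(CPM + 1). Sequences and positions came from RefSeq and GENCODE tables of GRCm38.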

Additional observations from a re-analysis of the deposited data

Results flagged for a closer look

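The effect of genotype on Arpc2 differed between DG granule and CA1 pyramidal neurons. The log2 fold change of KI over WT was lower in DG granule neurons by a difference of -0.59 (SE 0.10, adjusted p = 0.00171, edgeR's class-by-genotype term). Both KI libraries were below both WT libraries in DG granule neurons, while the libraries overlapped in CA1 pyramidal neurons. Within each of the 2 clusters of DG granule neurons the log2 fold change was 0.01 and -0.08, and the part of the clusters in the difference was not tested.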

How the results depend on the processing

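The count of members past the threshold over all nuclei was 0 with each alternative except the leave-one-out fits, which gave 0 to 3 (3 without KI replicate 2). Within classes the count of 1 became 2 with no filter on low counts, with no doublet removal and with library totals without Malat1, and 0 at equal depth and with nuclei gated by markers. Each fit without 1 library has a single library in that genotype, so its spread comes from the other genotype's pair alone, and its counts say little about stability. Leaving out 1 library gave 0 to 19, with 0 without either WT library, 9 without KI replicate 1 and 19 without KI replicate 2. Calls in the regulator lists went from 14 to 35 with no low-count filter, to 9 with the marker gate and to 1 to 132 leaving out 1 library (132 without KI replicate 2). The test between DG granule and CA1 pyramidal neurons called 1 member, and 0 to 6 leaving out 1 library. The number of members with 1 highest class in each library was 2, became 8 in classes with at least 100 nuclei, and 2 to 5 leaving out 1 library. Over all nuclei, leaving out 1 library moved Arpc1b between -0.17 and 0.24, Arpc5 between -0.17 and 0.31 and Arpc4 between -0.39 and 0.0079, with the sign turned without KI replicate 1 for Arpc1b and Arpc5 and without KI replicate 2 for Arpc4. Arpc2 in the DG cluster held mostly by WT nuclei was at 0.0075 and Inf2 at 0.41. The cause was not tested.

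With the replicate number as a replicate block the count within classes was 2 and the count in the regulator lists 24, and the pairing changed no count over all nuclei. Same-numbered libraries did not deviate together (correlation of 0.06 over all nuclei and -0.09 to 0.12 in classes), and the labels tie the numbers to nothing shared, so the numbers were not taken as pairs. Library totals in place of TMM moved the median of all genes by -0.13 in DG granule neurons, -0.11 in OPC, -0.10 in inhibitory neurons, -0.12 in Cajal-Retzius cells and -0.14 in committed OPC, and changed no call of a member. Depth limits the small classes, with as few as 29849 UMIs in a library of mural cells, 91302 of Cajal-Retzius cells and 141036 of microglia.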

Other observations

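Classes with too few nuclei for a test held subunit genes at levels that rest on a few UMIs. Perivascular macrophages (12 to 27 nuclei per library) had 301, 242, 581 and 494 CPM of Actr3 and 414, 220.3, 325 and 565 CPM of Arpc2, from as few as 7 and 8 UMIs. Endothelial cells (14 to 36 nuclei per library) had 76.2, 101, 92.2 and 183 CPM of Arpc1b, and 76.2, 243, 184 and 160.0 CPM of Arpc3, from as few as 4 UMIs each. No comparison was made with these classes.

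In the nuclei left unnamed Actr2 was at 114, 108, 141 and 119 CPM and Arpc2 at 131, 113, 113 and 93.7 CPM.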
